A study of Mus musculus with 66 samples.

Results

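The genes followed here are those whose symbol is Cd with a number and at most 1 lower-case letter, the mouse names of cluster of differentiation antigens, molecules that were first catalogued by the antibodies that label white blood cells. On the later array version 54 gene symbols matched. Cd36, Cd74 and Cd93 were left out by the rule, and Cd46 did not lie above the intensity floor of 64.7 on at least 2 arrays. That left 50 member genes of 8251 genes with 1 symbol on the array, each represented by its brightest probe set, a set of short oligonucleotides for 1 transcript. The name leukocyte antigen is only partly borne out by what the members are: 15 are T and natural killer (NK) cell genes, 6 B cell genes, 6 myeloid or antigen-presenting genes and 5 pan-leukocyte genes, but 16 are made by many cell types, and Cd5l and Cd70 are in none of these lists. Cd5l codes for a secreted macrophage protein and Cd68 for a protein of endosomes and lysosomes, so not every member is a surface antigen.

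CD antigens mark stages and lineages of blood cells. Cd3 chains, Cd4 and Cd8a belong to the T cell receptor apparatus, Cd79a and Cd79b carry the signal of the B cell receptor, and Cd14 and Cd68 are used to recognise monocytes and macrophages. Injured skeletal muscle is entered by neutrophils and then by monocytes, whose macrophage descendants clear the destroyed fibres before new fibres form from satellite cells.

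The samples were total RNA from mouse gastrocnemius, the large calf muscle, either untreated or taken after an injection of cardiotoxin, a cobra venom peptide that kills muscle fibres. The later version of the array, labelled Av2, was used for 54 arrays in 27 groups of 2: controls, then 12 h and 25 times from 1 to 40 d. The earlier version, labelled A, was used for 12 arrays, 2 each for controls, 12 h, 1, 2, 4 and 10 d. Control labels give an age of 8 weeks, and some of the other labels give 100 µl of 10 µM cardiotoxin as the injection; the labels name neither strain nor sex. All 15 skeletal muscle fibre markers of a list were above the filter, but so were 11997 of 12422 probe sets, so this does not test the labelled tissue. A whole muscle holds many cell types, and in these samples more cells of a type and more RNA per cell cannot be told apart. The labels do not say that the 2 arrays of a group were separate animals. In 9 of the 27 later groups, 12, 13 and 14 d among them, both arrays carry the same code number and differ only in the letters LL or RL; what the codes mean is not stated. Each array counts as 1 in every n here, so p-values measure the spread between arrays, and they are too small if arrays of 1 number share an animal.

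Some arrays stood apart before any member was examined. The manufacturer's probe sets for the 3' and 5' ends of b-actin gave a 3' to 5' ratio of 0.0184 to 0.0782 on 7 arrays (the second at 12 h, and the pairs of 1, 2 and 4 d) and of 0.233 to 1.38 on the other arrays. The same ratio for Gapdh was low on a different set of arrays, most of them late. It was 0.0439 to 0.162 on the second arrays of 9.5, 12, 14 and 20 d. The first arrays of 11, 16 and 40 d and both of 30 d gave 0.0496 to 0.0881. All remaining arrays gave 0.314 to 0.970. No fit left out the arrays low in Gapdh as a set. At 12 h the second array differed from the first by more than 4-fold, after values were raised to the floor, at 3.62% of all probe sets tested, against 0.300% to 1.91% in the other 26 groups. At 9 d the first array held more RNA of neutrophil genes than the second, with a mean log2 difference from the controls over 15 neutrophil markers of 2.90 against 2.01, while the arrays of 8.5 and 9.5 d lay between 0.204 and 0.298. Without the first 9 d array 16 members were higher and 3 lower in 8 to 10 d, as with it, while the step from 8 to 10 d to 11 to 16 d held 4 members and not 7.

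Over the whole time course 30 of the 50 members changed (limma F test, adjusted p under 0.05), or 60% of them, where 48.7% of all 11997 probe sets tested did. The time points were set against the controls in windows of 12 h to 2 d (n = 6), 3 to 4.5 d (n = 8), 5 to 7.5 d (n = 12), 8 to 10 d (n = 10), 11 to 16 d (n = 10) and 20 to 40 d (n = 6), all of which share the same 2 control arrays. In 12 h to 2 d 15 members were higher and 8 lower, beside 17.7% and 18.5% of all probe sets. In 3 to 4.5 d 18 were higher and 5 lower (22.2% and 18.5% of all), and in 5 to 7.5 d 17 and 3 (19% and 16.1%). In 8 to 10 d 16 were higher and 3 lower (16.9% and 13.8%), and in 11 to 16 d 15 and 2 (13.9% and 10.2%). In 20 to 40 d 5 were higher and 0 lower (5.01% and 2.12%). From 3 to 16 d the share of members that were higher was thus 30% to 36%, above that of all probe sets, and the share that was lower was 10% or less, below it. The counts of the first window rested on single arrays. Its 8 lower members were 2 without control replicate 1 and 5 without control replicate 2.

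Of the 6 arrays of 12 h to 2 d only the first 12 h array is not low in the b-actin ratio. A fit without the 7 low arrays therefore sets 1 array at 1 time against the controls, with its spread taken from the other groups. In that fit 6 members were higher (Cd14, Cd37, Cd44, Cd52, Cd53 and Cd68) and 1 lower (Cd81). The other 16 of the 23 calls of that window were lost, those of Cd48, Cd302, Cd86, Cd80, Cd244a, Cd28, Cd47, Cd9, Cd82, Cd63, Cd34, Cd55, Cd59a, Cd59b, Cd200 and Cd320. The b-actin ratio and the time between 12 h and 2 d cannot be told apart in these losses.

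**Figure D1:**
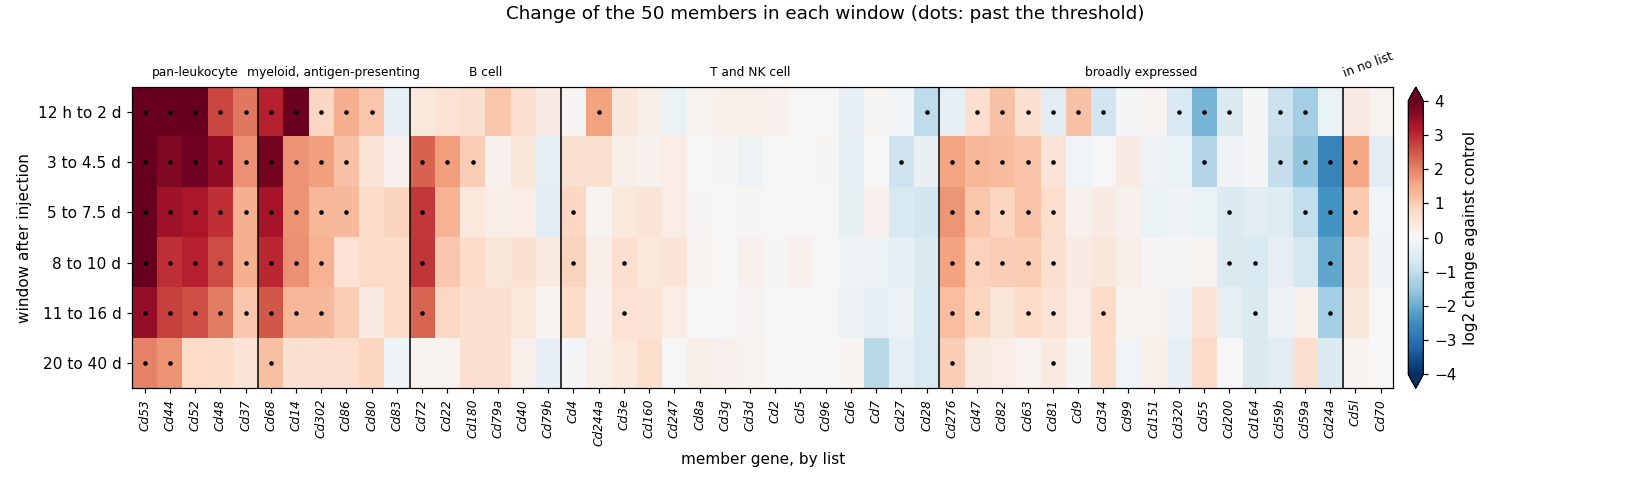
Log2 change of each of the 50 members against the controls (colour, clipped at 4 in either direction) in the 6 windows (rows), with members grouped by list and ordered by their mean change; a dot marks an adjusted p under 0.05 in limma. The 5 pan-leukocyte genes are higher in all of the first 5 windows, most T and NK cell genes are near 0, and the broadly expressed genes hold both rises and falls.

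The 5 pan-leukocyte genes gave the largest median rise of the member lists, all 5 higher in each of the first 5 windows and 2 of 5, Cd53 and Cd44, in 20 to 40 d. Their median log2 change was 4.76 in 12 h to 2 d and fell to 0.81 in 20 to 40 d, while the median over all probe sets lay between 0 and 0.03. Of all probe sets 13.9% to 22.2% were higher in the first 5 windows and 5.01% in the last. Cd53, a tetraspanin of the leukocyte membrane, had an intensity of 149.3 and 154.6 on the control arrays. In 12 h to 2 d it lay between 6874 and 17903 (median 9837), with all 6 arrays far above both controls. The log2 change was 6.13 (SE 0.35, adjusted p = 1.44e-14), a 69.8-fold rise. The first 12 h array, the only one of the window not low in the b-actin ratio, read 6874. In 20 to 40 d it lay between 207.6 and 995.3, still 2.00 log2 above the controls (SE 0.35, adjusted p = 3.57e-04). 

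Cd52, a short glycoprotein anchored in the lymphocyte and monocyte membrane, stood at 232.6 and 282.4 in controls and between 1999 and 11942 (median 8050) in 12 h to 2 d. Its log2 change there was 4.76 (SE 0.32, adjusted p = 7.91e-13). Its mean was highest at 1 d, 10073 ± 2643 (SD, n = 2), or 39.1-fold above the controls. Cd44, the receptor for hyaluronan, was below the floor on both control arrays (29 and 14) and stood between 780.1 and 3030 in 12 h to 2 d, which is at least 27.4-fold higher (log2 change 4.78 against the floor, SE 0.34, adjusted p = 2.5e-12). On the 6 arrays of 20 to 40 d it lay between 143.5 and 288.1, at least 3.45-fold higher (adjusted p = 0.00105). The other Cd44 probe sets, with means of 17.8 and 34.2 below the floor, did not pass (F test adjusted p = 0.992 and 0.533). On the earlier array Cd44 lay below the floor of 646.8 in controls and at 4 and 10 d. Its log2 change of 1.355 there in 12 h to 2 d did not pass (limma contrast, adjusted p = 0.0685).

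Cd48, a ligand of Cd2 and Cd244a, rose later than the other pan-leukocyte genes. On the first 12 h array it stood at 162.7, next to 161.8 and 121.1 in the controls, and on the second at 798.6. It then reached 1931 and 2329 at 2 d and 2219 and 2390 at 3 d. Its largest window change was at 3 to 4.5 d (log2 3.55, SE 0.32, adjusted p = 1.34e-10), and its rise from 12 h to 2 d to that window also passed (log2 0.89, SE 0.22, adjusted p = 0.0019). Its change in 12 h to 2 d was 2.66, and on the first 12 h array alone 0.22, which did not pass. Cd37, a tetraspanin of B cells and other leukocytes, rose from 328.6 and 424.4 to between 630.5 and 2550 (median 1680) in 12 h to 2 d, a log2 change of 2.11 (SE 0.26, adjusted p = 1.05e-07). Its change in 11 to 16 d (1.08, adjusted p = 0.0015) was lost without control replicate 1 (adjusted p = 0.0737).

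**Figure D2:**
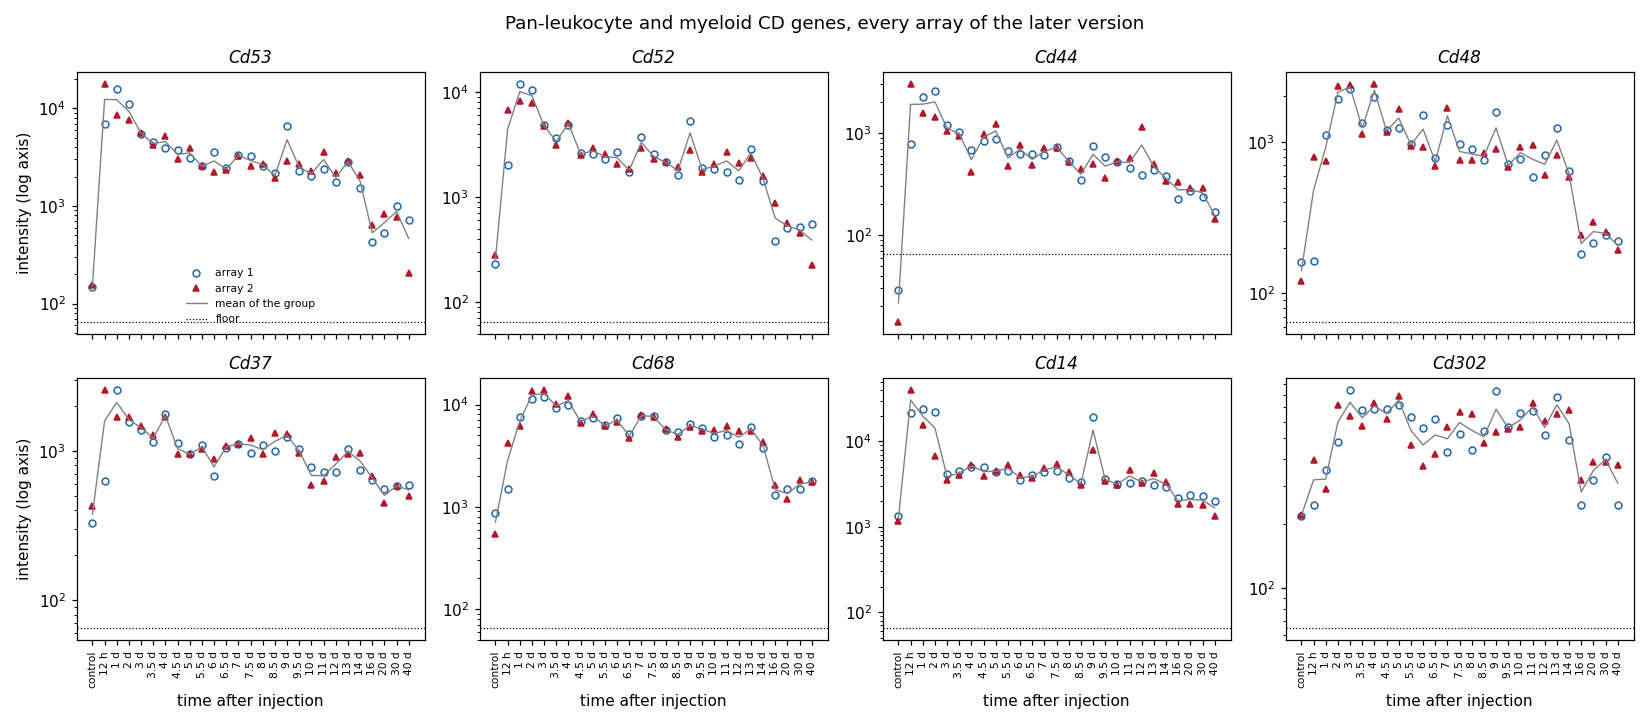
Intensity (log axis) of 5 pan-leukocyte and 3 myeloid CD genes on every array of the later version, by time (evenly spaced positions, not to scale); open circles and filled triangles are the arrays of a group, the line joins their means and the dotted line is the floor. Cd53, Cd52, Cd44 and Cd14 are high from 12 h or 1 d, Cd48 and Cd68 climb until 2 to 3 d, the first 9 d array stands above its neighbours in Cd14, Cd53 and Cd52, and most genes step down between 14 and 16 d.

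Of the 6 myeloid and antigen-presenting genes 5 were higher in 12 h to 2 d, 4 in 3 to 4.5 d and in 5 to 7.5 d, 3 in 8 to 10 d and in 11 to 16 d, and 1 in 20 to 40 d. None was lower. Among the 21 monocyte and macrophage markers fixed as a list, 17 to 18 were higher in each of the first 5 windows and 12 in the last, and among 15 neutrophil markers 10 were higher in 12 h to 2 d and 6 in 3 to 4.5 d. Cd14, the co-receptor for bacterial lipopolysaccharide, stood at 1344 and 1166 in controls, at 21283 and 39779 at 12 h, at 23931 and 15526 at 1 d and at 21932 and 6767 at 2 d. Both arrays of 3 d, 4159 and 3540, were lower than every array of 12 h to 2 d. The log2 change was 3.92 (SE 0.29, adjusted p = 5.83e-12) in 12 h to 2 d and 1.81 (SE 0.29, adjusted p = 4.37e-06) in 3 to 4.5 d, and the fall between these windows, -2.12 (SE 0.19, adjusted p = 4.28e-10), passed as well. Cd14 was the member with the highest intensity on any array, and its time of highest mean, 12 h, did not move when any array was left out.

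At 9 d Cd14 rose to 19070 and 8010, where the arrays of 8.5 and 9.5 d lay between 3059 and 3665. The same first 9 d array was above the second in Cd53 (6687 and 2893), Cd52 (5334 and 2817), Cd48 (1584 and 892.1) and Cd9 (4570 and 1798), but not in Cd68 (6419 and 6098) or Cd37 (1242 and 1301). The neutrophil marker S100a8 stood at 16089 and 2889 on the same arrays. The part of neutrophil RNA in these values was not tested.

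Cd68 ran on a slower course than Cd14. From 877.4 and 538.0 in controls it reached 1501 and 4181 at 12 h, 7533 and 6210 at 1 d and 11767 and 13857 at 3 d. Its log2 change was 3.12 in 12 h to 2 d, 3.83 (SE 0.21, adjusted p = 4.27e-15) in 3 to 4.5 d and 1.20 (SE 0.21, adjusted p = 4.82e-04) in 20 to 40 d; the last was lost without control replicate 2 (adjusted p = 0.0845). Cd302, a C-type lectin of macrophages and dendritic cells, went from 216.1 and 220.2 to between 572.9 and 841.3 in 3 to 4.5 d (log2 change 1.64, SE 0.22, adjusted p = 2.25e-07). Its change of 0.83 in 12 h to 2 d was 0.16 on the first 12 h array alone and did not pass.

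The B7 family members Cd86 and Cd80, which give T cells their second signal, were dimmer. Cd86 stood at 70.6 and 115.6 in controls and between 162.5 and 398.1 in 12 h to 2 d (log2 change 1.47, SE 0.40, adjusted p = 0.0042), and each of its 3 calls, up to 7.5 d, was lost without control replicate 1 (adjusted p = 0.13 to 0.268). The first of them was also lost on the first 12 h array alone (log2 0.85, adjusted p = 0.19). Cd80 was 119.4 and 45.7 in controls and 96.1 to 308.3 in 12 h to 2 d (log2 change 1.11, adjusted p = 0.0268, which was 0.4 without control replicate 2 and 0.0686 on the first 12 h array alone). Cd83, a marker of mature dendritic cells, did not pass in any window with its brightest probe set (F test adjusted p = 0.0973), but its second probe set did (F test adjusted p = 7.8e-04), with a log2 change of up to 2.54 in 5 to 7.5 d. In 5 to 7.5 d the brightest one had a log2 change of 0.90 that did not pass (adjusted p = 0.117), and the difference between the probe sets was not tested.

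The 12 h arrays differed widely in 4 of the 6 B cell genes. Cd79a stood at 361.7 on the first 12 h array and 3359 on the second, Cd79b at 187.8 and 2334, Cd22 at 75.8 and 616.2, and Cd72 at 31.7 and 443.6. On the controls the same genes lay at 405.5 and 154.2, 164.7 and 254.3, 51.4 and 49.7, and 101.3 and 65.4. So the first 12 h array was below or near the control values in these 4, and the second far above them. The other B cell genes did not differ in this way, with Cd180 at 63.2 and 65.0 and Cd40 at 171.8 and 238.9. After the floor, 7 of the 50 members were more than 4-fold apart at 12 h (Cd79b 12.4-fold, Cd79a 9.29-fold, Cd22 8.13-fold, Cd7 6.89-fold, Cd72 6.86-fold, Cd48 4.91-fold and Cd37 4.03-fold), all higher on the second array, against 0 or 1 members in any other group.

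**Figure D3:**
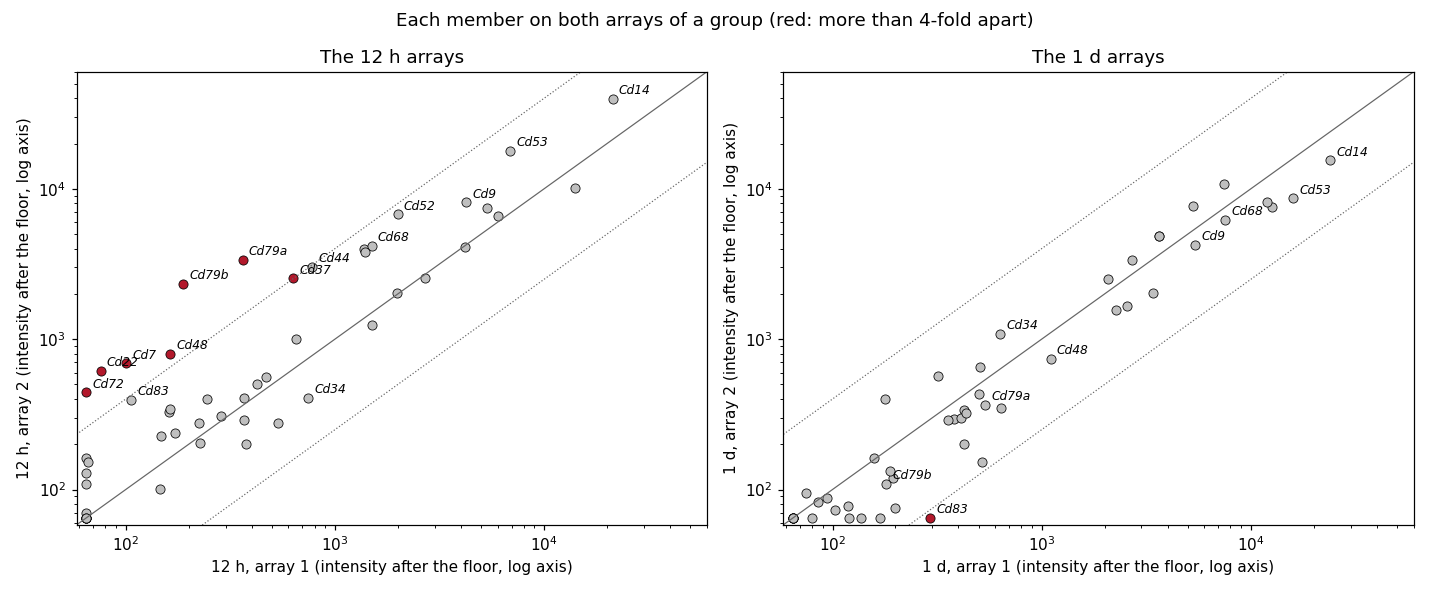
Intensity after the floor of each member on the second array (y axis, log) against the first (x axis, log) at 12 h (left) and 1 d (right); the solid line is equality, the dotted lines are 4-fold differences and red points lie beyond them. At 12 h 7 members, among them Cd79a, Cd79b, Cd22 and Cd72, stand more than 4-fold higher on the second array, and at 1 d 1 member, Cd83, is more than 4-fold apart.

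Other genes moved with this array. The B cell gene Ms4a1 stood at 452.5 and 2529 on the 12 h arrays, the follicular B cell receptor Fcer2a at 34.1 and 898.8, the follicle chemokine Cxcl13 at 63.7 and 2261, and Glycam1, a mucin of lymph node venules, at 36.5 and 1253. Among the 7 lymph node markers above the filter the mean log2 difference from the controls was -0.07 and 2.99 on the 12 h arrays and at most 1.24 on any other array, and among 15 B and plasma cell markers it was -0.09 and 1.13, with at most 0.46 elsewhere. Cd79a also differed on the earlier array version, where the 12 h samples have the same codes: it was 61.3 on the first and 3326 on the second, and at most 515.1 on any other array. The part of lymphoid tissue in these values was not tested. With the second 12 h array left out, 14 members were higher and 8 lower in 12 h to 2 d, and with 12 h left out altogether 15 and 8.

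Beyond 12 h, Cd79a and Cd79b did not pass in any window, with F test adjusted p = 0.353 and 0.245. Cd72, an inhibitory co-receptor of B cells that some macrophages also make, did. It stood at 38.6 and 13.8 at 1 d, 336.6 and 500.7 at 3 d and 1159 and 618.3 at 9 d. All 8 arrays of 3 to 4.5 d, 12 of 5 to 7.5 d and 10 of 8 to 10 d lay above both controls. Its log2 change was 0.42 (not passed) in 12 h to 2 d, 2.35 in 3 to 4.5 d, 2.82 in 5 to 7.5 d and 2.85 in 8 to 10 d (SE 0.38, adjusted p = 4.98e-07), and 0.15 (not passed) in 20 to 40 d. Cd22, a sialic acid-binding inhibitory receptor, was at the floor in controls and between 121.6 and 280.5 in 3 to 4.5 d, at least 3.18-fold higher (adjusted p = 0.0332), and Cd180, a relative of the Toll-like receptors, changed by 0.99 log2 there (adjusted p = 0.0423). Neither call held without each control in turn (highest adjusted p = 0.152 for Cd22 and 0.286 for Cd180). Cd40 did not pass in any window.

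**Figure D4:**
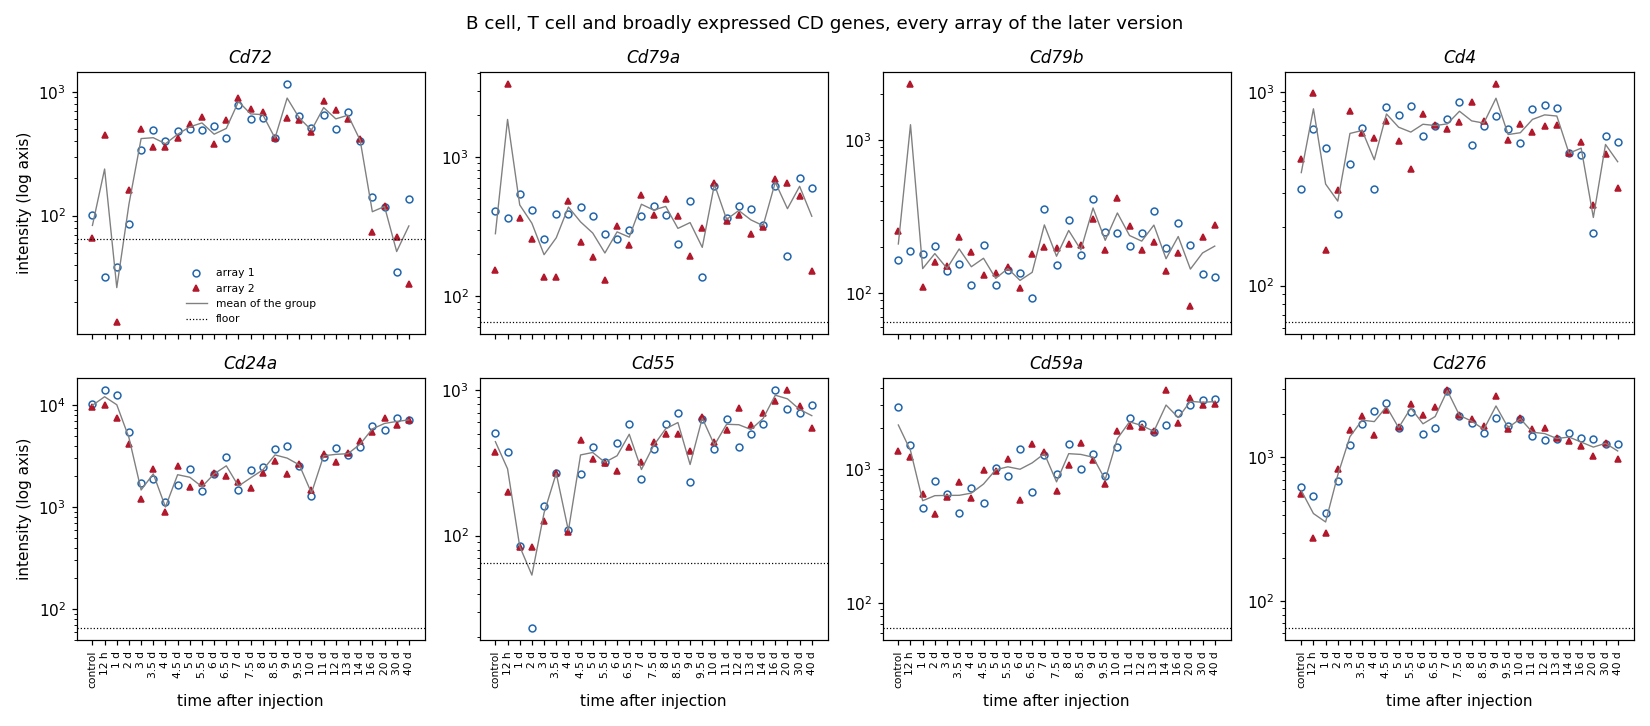
Intensity (log axis) on every array of the later version, by time (evenly spaced positions, not to scale), for 3 B cell genes, Cd4, and 4 broadly expressed CD genes; open circles and filled triangles are the arrays of a group, the line joins their means and the dotted line is the floor. Cd79a and Cd79b are high on 1 array of 12 h only, Cd72 is high from 3 to 14 d, Cd24a, Cd55 and Cd59a dip early and come back, and Cd276 stays above the controls from 3 d on.

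Most of the 15 T and NK cell genes were dim, and 4 of the 15 passed the F test (Cd4, Cd244a, Cd3d and Cd6), beside 48.7% of all probe sets. Cd2, Cd3g, Cd5, Cd8a and Cd96 lay above the floor on 2 to 9 of the 54 arrays, Cd3d on 24, so that only large changes could be seen. In any window at most 2 of the 15 were higher and at most 1 lower, beside 5.01% to 22.2% and 2.12% to 18.5% of all probe sets. Cd244a, a receptor of NK cells and some myeloid cells that binds Cd48, rose from 127.3 and 82.8 to between 161.0 and 425.8 in 12 h to 2 d (log2 change 1.60, SE 0.40, adjusted p = 0.00167), which was lost without control replicate 2 (adjusted p = 0.0707) and on the first 12 h array alone (log2 0.65, adjusted p = 0.631). Cd28, the co-stimulatory receptor for Cd80 and Cd86, fell from 262.3 and 353.8 to between 47.7 and 225.4 in the same window (log2 change -1.01, SE 0.32, adjusted p = 0.0137), lost without control replicate 2 (adjusted p = 0.192) and on the first 12 h array alone (log2 -0.43, adjusted p = 0.691).

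Cd4, the co-receptor of helper T cells, stood at 315.5 and 453.2 in controls and between 534.1 and 1108 in 8 to 10 d, with all 10 arrays above both controls. The log2 change there was 0.88 (SE 0.32, adjusted p = 0.0341), and it was lost without control replicate 1 (adjusted p = 0.373), as was the change in 5 to 7.5 d (0.84, adjusted p = 0.392 without it). The first call was lost in 5 fits that each left out 1 array and the second in 6, either control among them. Both calls were also lost with quantile and with median scaling. Cd3e, a signalling chain of the T cell receptor, was below the floor in controls (60.0 and 50.1) and between 84.2 and 128.7 in 8 to 10 d, at least 1.59-fold higher (adjusted p = 0.0133, 0.105 without control replicate 2). The call of Cd3e in 11 to 16 d was lost in 7 of the fits that each left out 1 array. The partner chains Cd3d, Cd3g and Cd247 did not pass in any window, though Cd3d passed the F test (adjusted p = 0.0393). Cd27, a receptor of T and B cells, was lower in 3 to 4.5 d (log2 change -0.82, SE 0.31, adjusted p = 0.0356, 0.185 without control replicate 2). Among 15 other T and NK cell markers 1 to 4 were higher and 0 to 2 lower in each window. Cd7, Cd6 and Cd160 did not pass in any window either. Cd6 passed the F test (adjusted p = 0.0401) and rose by 0.31 log2 from 11 to 16 d to 20 to 40 d (limma contrast, adjusted p = 0.0462).

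The 16 broadly expressed genes went both ways, and 15 of them passed the F test, beside 48.7% of all probe sets. In 12 h to 2 d 4 were higher and 7 lower (17.7% and 18.5% of all), and in 3 to 4.5 d 5 and 4 (22.2% and 18.5%). In 5 to 7.5 d the counts were 5 and 3 (19% and 16.1%), and in 8 to 10 d 5 and 3 (16.9% and 13.8%). In 11 to 16 d they were 5 and 2 (13.9% and 10.2%), and in 20 to 40 d 2 and 0 (5.01% and 2.12%). After the first window the share that was lower lay near that of all probe sets. The largest fall was that of Cd24a, a small mucin-like protein of immature blood cells, regenerating epithelium and muscle progenitors. It stood at 10284 and 9580 in controls, at 13996 and 10102 at 12 h, at 12584 and 7530 at 1 d, at 5409 and 4161 at 2 d and at 1115 and 887.3 at 4 d. It was thus near the control level for the first day and then lower than both controls on every array from 2 d to 40 d. The log2 change was -0.28 (not passed) in 12 h to 2 d and -2.66 (SE 0.23, adjusted p = 4.92e-11) in 3 to 4.5 d, 6.31-fold lower, and -1.37 (adjusted p = 1.84e-05) in 11 to 16 d. The 6 arrays of 20 to 40 d, between 5698 and 7494, were 0.54 log2 below the controls, which did not pass.

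Cd55, Cd59a and Cd59b, which shield cells from complement, were lower in the first windows, but on the first 12 h array alone none of the 3 passed (log2 -0.22, -0.40 and -0.53). Cd55, which breaks up the C3 convertase, went from 510.4 and 374.6 down to 85.4 and 83.2 by the first day, with 2 d arrays at 23.1 and 84.1. The log2 change in 12 h to 2 d was -1.87 (SE 0.25, adjusted p = 3.4e-07), a fall that is a lower bound because 1 array lay below the floor, and -1.17 (adjusted p = 1.77e-04) in 3 to 4.5 d. Cd59a, which blocks the membrane attack complex, differed between the controls (2885 and 1358) and lay between 469.7 and 986.5 in 3 to 4.5 d (log2 change -1.59, SE 0.31, adjusted p = 8.62e-05). Its changes in 12 h to 2 d and in 5 to 7.5 d were lost without control replicate 1 (adjusted p = 0.148 and 0.47). Its paralog Cd59b, at 565.2 and 495.7 in controls, fell by 0.96 log2 in 3 to 4.5 d (adjusted p = 9.2e-04) and by 0.86 in 12 h to 2 d (adjusted p = 0.00417, 0.0717 without control replicate 1). The 2 paralogs are alike in sequence, and probe sets may read both.

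Cd276, a B7 family protein of stromal and activated immune cells, rose and stayed up. It stood at 620.9 and 554.6 in controls, at 276.5 to 826.5 in 12 h to 2 d and at 1225 to 2382 in 3 to 4.5 d, with no overlap between those windows. Its highest mean was 2911 ± 32 (SD, n = 2) at 7 d, 4.95-fold above the controls. In 20 to 40 d it was 968.9 to 1339, still 1.00 log2 up (SE 0.19, adjusted p = 0.00112), though this did not pass where its second probe set was averaged in (log2 0.33). Of 10 fibroblast markers 0 were higher and 3 lower in 12 h to 2 d, and 8 and 1 in 3 to 4.5 d. Several marker lists rose between these windows: 8 of 10 fibroblast, 9 of 13 myoblast, 7 of 13 class II and 10 of 21 macrophage markers. Of all probe sets 16.9% rose and 10.7% fell in this step, and in the 4 lists 1, 2, 1 and 2 markers fell. Of 15 neutrophil markers 0 rose and 10 fell. The part of any of these cell types in the Cd276 values was not tested. Cd34, a sialomucin of blood vessels and progenitor cells, was lower in 12 h to 2 d (log2 change -0.78, SE 0.24, adjusted p = 0.0117, 0.196 without control replicate 1) and higher in 11 to 16 d (0.79, SE 0.23, adjusted p = 0.0106, 0.231 without control replicate 2), between 1784 and 2669 against 1482 and 1140. The first of these did not pass on the first 12 h array alone (log2 -0.81, adjusted p = 0.0776). The second Cd34 probe set was lower in 12 h to 2 d (-0.59, adjusted p = 0.00109) and higher in 11 to 16 d (0.92, adjusted p = 3.34e-06), and it also passed in 5 to 7.5 d, 8 to 10 d and 20 to 40 d, each time upward.

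Further members of this list moved less. Cd47, the signal against uptake by macrophages, was higher in the first 5 windows, by at most 1.32 log2 (SE 0.24, adjusted p = 3.95e-05) in 3 to 4.5 d. Its call in 12 h to 2 d (0.67) did not hold on the first 12 h array alone, where the value was -0.23, and those of that window, of 8 to 10 d and of 11 to 16 d were lost without control replicate 2 (adjusted p = 0.33, 0.125 and 0.186). The second Cd47 probe set was higher in the same 5 windows, by 1.42 (adjusted p = 1.09e-07) in 3 to 4.5 d and with a highest adjusted p of 0.00304. Cd200, a ligand that restrains myeloid cells, was lower in 12 h to 2 d, 5 to 7.5 d and 8 to 10 d (log2 change -0.56 to -0.59), each lost when either control was left out (highest adjusted p = 0.105), the first also on the first 12 h array alone (adjusted p = 0.253). Cd320, the transcobalamin receptor, fell by 0.61 in 12 h to 2 d (adjusted p = 0.0147, 0.116 without control replicate 1 and 0.0884 on the first 12 h array alone) and Cd164, a sialomucin, by 0.61 in 8 to 10 d and 0.58 in 11 to 16 d (highest adjusted p = 0.344 with an array left out). Cd99, an adhesion molecule of leukocytes and endothelium, and Cd151, a tetraspanin partner of integrins, passed the F test but no window. Of the genes in no list, Cd5l rose from 134.0 and 41.4 to between 156.8 and 365.8 in 3 to 4.5 d (log2 change 1.55, SE 0.36, adjusted p = 6.21e-04, 0.0955 without control replicate 2), and Cd70, the ligand of Cd27, did not pass.

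Tetraspanins, proteins with 4 membrane spans that gather receptors into patches, were taken as a list across these roles. All 7 (Cd53, Cd37, Cd9, Cd63, Cd81, Cd82 and Cd151) passed the F test, and 5 were higher in each of the first 4 windows. Of all probe sets 48.7% passed the F test and 16.9% to 22.2% were higher in these windows. Cd63, a marker of late endosomes and exosomes, was bright throughout, from 5722 and 5161 in controls to 14331 and 14930 at 5 d (log2 change 1.15 in 3 to 4.5 d, SE 0.14, adjusted p = 3.53e-08). Its change of 0.60 in 12 h to 2 d was 0.14 on the first 12 h array alone and did not pass. Cd81 was lower in 12 h to 2 d (log2 change -0.46, SE 0.11, adjusted p = 8.32e-04, 0.0602 without control replicate 1) and higher in each later window, by at most 0.69 (adjusted p = 1.68e-06); the last call, in 20 to 40 d, was lost without control replicate 2 (adjusted p = 0.348) and with median scaling. The step between the first 2 windows, 0.97 (SE 0.07, adjusted p = 3.27e-12), passed as well. Cd82 was higher up to 10 d, by at most 1.26 log2 (SE 0.33, adjusted p = 0.00218), but all 4 calls were lost without control replicate 2 (adjusted p = 0.143 to 0.512), the first also on the first 12 h array alone (adjusted p = 0.687), and its other probe sets did not pass.

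Cd9, a tetraspanin of platelets, leukocytes and myoblasts, gave opposite results on the array versions. On the later version it stood at 2276 and 2113 in controls and between 3088 and 8146 in 12 h to 2 d (log2 change 1.17, SE 0.28, adjusted p = 0.00103), with all 6 arrays above both controls. On the first 12 h array alone the change was 0.95 and did not pass (adjusted p = 0.113). On the earlier version the probe set of the same name read 8739 and 8934 in controls and lay between 4106 and 8809 at 12 h to 2 d (log2 change -0.52, adjusted p = 0.0215), 3614 and 2967 at 4 d (-1.43, adjusted p = 6.81e-04) and 5467 and 5431 at 10 d (-0.70, adjusted p = 0.0268). The direction of Cd9 is therefore not settled by these data.

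The other members were compared on both versions too, by the probe set of the same name except for Cd34, Cd63 and Cd79b. For these another probe set of the gene was read on the earlier version. On the earlier array 49 of the 50 members had a probe set, Cd302 being the exception, 21 passed its higher floor of 646.8, and Cd63 and Cd79b are listed at 0 on every array. In 12 h to 2 d 8 of these 21 were higher and 3 lower, beside 21.3% and 26.3% of the 4742 probe sets tested there. At 4 d 9 were higher and 3 lower (22.9% and 23%), and at 10 d 6 and 2 (13.3% and 13.2%). All 11 members called in 12 h to 2 d on the earlier array were called on the later one too, 10 of them in the same direction, Cd9 being the exception, and those 11 were 68.8% of the 16 called on the later array among the 21. At 4 d 10 of 12 and at 10 d 5 of 8 were also called at that time on the later array, all in the same direction. Cd53 rose by 3.91 log2 in 12 h to 2 d (adjusted p = 1.74e-04), Cd68 by 4.16 at 4 d (adjusted p = 3.84e-04) and Cd276 by 1.64 at 10 d (adjusted p = 6.9e-05), while Cd24a fell by 2.59 at 4 d (adjusted p = 3.89e-04). The earlier controls of Cd53 (76.9 and 121.7) and of Cd68 (335.6 and 496.9) lay below the floor, so these 2 rises are lower bounds. Sample codes of the controls and of 12 h recur on the other version, so this is no independent replicate, and the count of 11 was 7 without control replicate 1 and 6 without control replicate 2. The 8 calls at 10 d were 4 without control replicate 2.

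Neighbouring windows show when members moved. From 12 h to 2 d to 3 to 4.5 d 15 members rose and 9 fell, beside 16.9% and 10.7% of all probe sets: the largest rises were those of Cd72 (1.93 log2) and Cd276 (1.92), and the largest falls those of Cd24a (-2.38), Cd14 (-2.12) and Cd9 (-1.28). From there to 5 to 7.5 d 5 rose and 7 fell (9.16% and 12% of all), with Cd55 rising by 0.91 (SE 0.14, adjusted p = 1.34e-05) and Cd48, Cd52 and Cd53 each falling by 0.61 to 0.62. Cd151 alone changed from 5 to 7.5 d to 8 to 10 d, rising by 0.31, beside 1.03% of all probe sets that rose and 1.42% that fell. From 8 to 10 d to 11 to 16 d 2 rose, Cd59a by 0.90 and Cd24a by 0.69, and 5 fell (3.17% and 3.36% of all); this count was 3 to 12 with single arrays left out. From 11 to 16 d to 20 to 40 d 3 rose and 13 fell (8.19% and 11.3% of all), among them all 5 pan-leukocyte genes and Cd72, by 2.18 (SE 0.25, adjusted p = 1.21e-07).

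Much of the last fall lay between 14 and 16 d. Cd53 went from 1521 and 2098 to 427.3 and 633.8, Cd68 3720 and 4261 and then 1314 and 1632, and Cd72 397.6 and 413.1 and then 141.8 and 73.2. In each the 2 times did not overlap. A comparison of 16 and 20 d (n = 4) with 12 to 14 d (n = 6 arrays, where each time has 1 code number), chosen after these values had been seen, found 11 members lower and 2 higher, beside 7.88% and 4.71% of all probe sets. Cd72 was lower by 2.29 log2 (4.89-fold, SE 0.31, adjusted p = 5.5e-06), Cd53 by 1.88 (3.67-fold), Cd52 by 1.77 (3.42-fold), Cd68 by 1.77 (3.41-fold, adjusted p = 1.61e-08) and Cd48 by 1.71 (3.28-fold). Cd302, Cd4, Cd44, Cd14, Cd63 and Cd37 fell by 0.62 to 0.97, and Cd24a and Cd55 rose by 0.80 and 0.64. The 2 sets of arrays did not overlap for any of these 13 except Cd4 and Cd55. The 11 lower members were 7 without 16 d replicate 1 or without 20 d replicate 1. Both sides of this comparison hold arrays low in the Gapdh ratio. Of 21 monocyte and macrophage markers 17 fell from 11 to 16 d to 20 to 40 d, beside 11.3% of all probe sets. The part of these markers in the fall of the members was not tested.

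Members whose fall at 16 and 20 d was over 3-fold were looked at for shared letters around their gene starts. Promoters, 250 bases before to 50 after the gene start, were taken from RefSeq (GRCm38.p6), which gave entries for 36 of the 50 members, Cd53, Cd68, Cd72 and Cd48 among them. The letters searched were GAGGAA, a core that PU.1 and other Ets family factors of blood cells bind, on either strand (TTCCTC when read from the other), and they are in capitals. Cd53 lies at chr3:106790100-106790399 (minus strand), Cd68 at chr11:69666121-69666420 (minus), Cd72 at chr4:43454577-43454876 (minus) and Cd48 at chr1:171681742-171682041 (plus).
Cd53: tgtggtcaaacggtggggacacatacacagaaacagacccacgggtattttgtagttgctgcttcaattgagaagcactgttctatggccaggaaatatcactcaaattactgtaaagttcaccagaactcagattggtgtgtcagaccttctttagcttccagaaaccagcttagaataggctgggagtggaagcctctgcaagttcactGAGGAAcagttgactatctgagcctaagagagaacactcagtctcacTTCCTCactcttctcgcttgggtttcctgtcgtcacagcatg
Cd68: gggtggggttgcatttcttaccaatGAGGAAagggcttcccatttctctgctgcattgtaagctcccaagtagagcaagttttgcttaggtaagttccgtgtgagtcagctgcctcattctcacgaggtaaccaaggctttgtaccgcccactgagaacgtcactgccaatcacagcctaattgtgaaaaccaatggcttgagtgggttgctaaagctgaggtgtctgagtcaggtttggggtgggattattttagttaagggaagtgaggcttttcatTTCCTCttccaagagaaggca
Cd72: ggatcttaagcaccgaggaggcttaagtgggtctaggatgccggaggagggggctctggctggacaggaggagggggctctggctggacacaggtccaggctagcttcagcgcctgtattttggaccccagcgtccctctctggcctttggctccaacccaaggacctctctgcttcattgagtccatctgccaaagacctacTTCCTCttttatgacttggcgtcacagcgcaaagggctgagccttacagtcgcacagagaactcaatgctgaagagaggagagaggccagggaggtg
Cd48: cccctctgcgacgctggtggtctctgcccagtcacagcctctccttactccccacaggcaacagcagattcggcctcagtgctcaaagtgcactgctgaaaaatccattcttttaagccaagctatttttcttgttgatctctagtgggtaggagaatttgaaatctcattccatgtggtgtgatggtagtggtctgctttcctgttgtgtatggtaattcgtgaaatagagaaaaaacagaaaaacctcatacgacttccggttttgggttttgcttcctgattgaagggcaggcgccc
The letters occur 2 times in the window of Cd53 and of Cd68, 1 time in that of Cd72 and not in that of Cd48. In Cd53 and in Cd68 the second of the 2 lies after the gene start. They were found in at least 1 promoter of 20 of the 36 members (55.6%), where 28.3% of all 32851 promoters and 31.3% of the 27025 genes in the table hold them. Cd37, Cd44, Cd14 and Cd52 show the limits of this: Cd37 and Cd44 hold the letters 2 times each, Cd14 and Cd52 have no entry, and Cd3d, Cd5 and Cd8a, dim T cell genes that passed in no window, hold them too. A match is a description and not a binding site.

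By time of highest mean the members spread over the whole course. The highest mean lay in 12 h to 2 d for 16 members, in 3 to 4.5 d for 7, in 5 to 7.5 d for 9, in 8 to 10 d for 6, in 11 to 16 d for 5, in 20 to 40 d for 5 and in the controls for 2 (Cd28 and Cd96). For Cd2, Cd3g, Cd5, Cd8a and Cd96, above the floor on 2 to 9 arrays, this time ranks values that are mostly below the floor and has no meaning. The time was the same with every array left out in turn for 8 members: Cd14 (12 h), Cd5l (3 d), Cd63 (5 d), Cd99 (5.5 d), Cd276 (7 d), Cd34 (14 d), Cd59b (16 d) and Cd6 (40 d). For Cd22, Cd79a and Cd79b it was 12 h and moved to 7, 16 and 9 d without the second 12 h array. Pan-leukocyte genes peaked between 12 h and 3 d. For Cd55, Cd59a and Cd59b, the complement regulators, the highest mean lay at 16 or 20 d, but none of these genes passed as higher than the controls in any window. The time of Cd59a moved among 14, 20, 30 and 40 d with single arrays left out. A late rise above the controls is thus not shown for these genes.

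For comparison, 99 CD antigens with other gene symbols, Cd36, Cd74 and Cd93 included, were tested in the same fit. Of these 50, 49, 40, 42, 40 and 15 were higher and 4, 4, 4, 2, 3 and 0 lower in the 6 windows in turn. Among all probe sets 5.01% to 22.2% were higher and 2.12% to 18.5% lower, by window. The largest rises in 12 h to 2 d were those of the myeloid metalloprotease Adam8 (34.6 and 36.8 in controls, 8425 to 18869 after, at least 184-fold), the interleukin receptor chain Il4ra (92.4-fold), the chemokine receptor Ccr2 (52.1-fold), the integrin chain Itgam (at least 39.6-fold) and the Fc receptor Fcgr2b (32.0-fold). Adam8, Ccr2, Fcgr2b and Il4ra were also among the 5 largest up to 16 d, joined by the myeloid inhibitory receptor Sirpa (26.5-fold in 3 to 4.5 d). In 20 to 40 d Ccr2 was 5.32-fold, Il4ra 4.44-fold, the class II invariant chain Cd74 3.64-fold, Sirpa 3.56-fold and the adhesion molecule Vcam1 2.96-fold above the controls. The largest falls, up to 3 per window, were those of basigin, Bsg (log2 change -1.43 in 12 h to 2 d), the fatty acid transporter Cd36 (-2.16 in 5 to 7.5 d), the prion protein gene Prnp (-0.64 in 12 h to 2 d) and the B cell chemokine receptor Cxcr5 (-1.20 in 3 to 4.5 d, where 7 of 8 arrays lay below the floor).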

How the data were processed

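Total RNA of mouse gastrocnemius was measured on 66 Affymetrix arrays of 2 versions, per the labels. The deposited values are linear intensities per probe set, which the files show scaled to a common 2% trimmed mean of 800.5 on the later and 600.3 on the earlier version; the software is not given in the sources used here. Values were raised to a floor and taken to log2. On the later version the floor was the 20th percentile, 64.7. On the earlier version, where 16.0% of values are negative, it was 646.8, set by another rule and not as that percentile. Probe sets above the floor on at least 2 arrays were tested, 11997 of 12488 and 4742 of 12654, without 66 control probe sets. Between 76.4% and 83.4% of probe sets per later array, and 26.5% to 28.5% per earlier array, were above the floor; the number of arrays limits the precision.

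limma 3.58.1 in R 4.3.3 was fitted with a mean per time point, contrasts of window means, and an F test. p-values were adjusted by Benjamini-Hochberg over all probe sets of a version, with a threshold of 0.05, and the fit was tested on simulated data. Of the probe sets 10833 have 1 gene symbol, 396 several and 1193 none. Named per list were the members with the largest change that passed, and members over 4-fold apart at 12 h. Members and lists were chosen with earlier results of these data known. Alternatives were another floor, scaling, test and probe set rule, a replicate block, and arrays left out. Promoter letters are from RefSeq.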

Additional observations from a re-analysis of the deposited data

How the results depend on the processing

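Over 13 other settings, 1263 of 1384 recomputed values of the 107 member-window calls kept their call, 120 lost it and 1 reversed (Cd47 in 12 h to 2 d, -0.23 without the arrays low in the b-actin ratio); 70 calls were never lost with an array left out. A required change of at least 2-fold left 7, 10, 8, 7, 6 and 0 members higher and 1, 1, 1, 1 and 0 lower in the first 5, 29, 31, 25, 23, 13 and 1 other CD antigens, and 4, 0, 0, 0 and 1 members in the steps. Without the arrays low in the b-actin ratio 6 members were higher and 1 lower in 12 h to 2 d with 32 other CD antigens, 10 higher in 20 to 40 d with 23, and the steps held 15, 5 and 12 at 3 to 4.5, 8 to 10 and 11 to 16 d. Lower members of 5 to 7.5 d were 6 with quantile and 8 with median scaling and 6 with 30 and 40 d as controls, which gave 8 in 3 to 4.5 d. The step to 8 to 10 d held 2 with quantile scaling, and that to 11 to 16 d 3 with median scaling and 4 with the floor times 0.5, where 1 member was higher at 16 and 20 d. On the earlier array 7 and 5 were called in 12 h to 2 d and at 10 d with the floor doubled, and 5 and 4 with no filter. The cause was not tested. With single arrays left out, members higher by window were 11 to 20, 14 to 18, 14 to 19, 12 to 17, 12 to 16 and 3 to 10, and lower 2 to 9, 4 to 6, 1 to 5, 1 to 3, 1 to 3 and 0 to 0. The steps held 22 to 29, 6 to 13, 1 to 4, 3 to 12 and 13 to 16, the F test 27 to 35, 16 and 20 d 7 to 12 lower and 1 to 3 higher, the earlier array 6 to 13, 9 to 13 and 3 to 9, and other CD antigens 44 to 58, 47 to 55, 41 to 46, 37 to 46, 33 to 44 and 7 to 22. In the 18 groups with code numbers 1 and 2, the difference between the numbers was not shared across times (r between -0.168 and 0.161 over 153 pairs of groups). This leaves out groups with 1 number, so it cannot show whether their arrays share an animal. With the number as a replicate block the F test called 29, and of the members' window calls only that of Cd180 was lost. All windows rest on the same 2 controls, and members near the floor could show large changes only.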
